A study of Mus musculus with 12 samples.

Results

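The smooth muscle and myofibroblast contractile genes described here were a list of 37 symbols for actins, myosins, their regulators, dense body and attachment proteins, and 2 transcription factors. The members were the symbols of this list with a count in any library, and all 37 met this rule, out of 18810 genes with a count. The member Pln held 1 count in 1 library, so that 36 members passed the filter on low counts and were tested, out of 13038 genes tested. The counts came from mRNAseq of cultured primary stroma from mouse small intestine, whose cells the labels call intestinal myofibroblast. The cells were grown from E14.5 embryos, pooled for each embryonic culture, or from adult mice, in medium with the ROCK inhibitor Y27632 at 1 µM until confluent, and were used at passages 2 to 3. Cultures received LPS from Escherichia coli O111:B4, at a final concentration that the labels give as 10 µg/µl, for 6 h, or the vehicle PBS. The 4 groups (embryonic PBS, embryonic LPS, adult PBS and adult LPS) held 3 libraries each, and all groups shared the medium and the passages. An LPS and a PBS library with the same stage and replicate number are called a culture here. The labels do not say that they came from 1 culture, but their deviations from the group means, over all tested genes, correlated with r between 0.610 and 0.850.

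Smooth muscle cells contract when calcium activates myosin light chain kinase (Mylk), which phosphorylates the regulatory light chain (Myl9) and lets smooth muscle myosin (Myh11) pull on filaments of alpha and gamma smooth muscle actin (Acta2, Actg2). The filaments are anchored in dense bodies and at membrane plaques, and desmin (Des) links these anchors into a network. Myofibroblasts carry part of the same machinery, mainly Acta2 and Tagln. Many of these genes are switched on by serum response factor (Srf), which binds CArG boxes in their control regions, with its muscle coactivator myocardin (Myocd). Bacterial LPS was used in the study to model an inflammatory stimulus. The question for these genes was how their levels differed between embryonic and adult stroma and whether they changed with LPS.

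Promoters with a CArG box are shown first, because the box is the element through which Srf acts on this group of genes. Of the 37 members, 32 had a promoter (250 bases before to 50 after the start site) in the RefSeq table of GRCm38.p6, and 7 of these 32 (21.9%) held an exact CArG box on either strand. Of all genes in the table, 488 of 27025 (1.81%) did. No other motif was searched, and a match is only a description of the letters. The 7 genes were Srf, Ldb3, Myl9, Cnn2, Vcl, Filip1l and Fhl1. Actg2, Myh11, Tagln, Myocd and Nexn had no entry. The promoters of Srf, which held 2 boxes (82 and 62 bases before its start site), of Ldb3, a Z-disc and dense body protein whose LPS values are described later, and of Myl9, the member with a box that had the highest level, are printed from 5′ to 3′ with the boxes in capitals. They lie at chr17:46556113-46556412 (minus strand), chr14:34588632-34588931 (minus strand) and chr2:156775214-156775513 (plus strand) of GRCm38.p6.
Srf: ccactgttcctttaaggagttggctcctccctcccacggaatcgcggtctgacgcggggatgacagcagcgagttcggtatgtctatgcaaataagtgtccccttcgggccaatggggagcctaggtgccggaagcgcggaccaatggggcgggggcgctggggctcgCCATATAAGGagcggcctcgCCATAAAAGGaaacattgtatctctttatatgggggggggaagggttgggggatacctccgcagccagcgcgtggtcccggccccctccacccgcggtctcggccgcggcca
Ldb3: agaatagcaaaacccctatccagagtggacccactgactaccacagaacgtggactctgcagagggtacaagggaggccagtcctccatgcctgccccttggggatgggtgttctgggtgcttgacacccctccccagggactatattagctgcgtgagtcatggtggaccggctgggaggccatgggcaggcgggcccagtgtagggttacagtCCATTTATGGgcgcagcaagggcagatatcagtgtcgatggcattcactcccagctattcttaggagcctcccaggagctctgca
Myl9: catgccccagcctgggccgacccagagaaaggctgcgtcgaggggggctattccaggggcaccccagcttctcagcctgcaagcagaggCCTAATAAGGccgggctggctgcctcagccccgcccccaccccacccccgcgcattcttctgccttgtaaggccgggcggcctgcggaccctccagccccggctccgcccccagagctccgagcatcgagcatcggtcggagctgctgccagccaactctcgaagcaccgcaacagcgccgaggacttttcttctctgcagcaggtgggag

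The box of Ldb3 began 35 bases before the start site of the printed promoter and 109 bases before that of its other promoter entry. The box of Myl9 began 161 bases before its start site. The boxes of Cnn2, Vcl, Filip1l and Fhl1 began 56, 227, 62 and 102 bases before theirs. Filip1l and Fhl1 each also had a promoter entry without a box.

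Between 18850224 and 32672370 counts per library were assigned to genes, and 3 counts, taken as the smallest detectable level, stood for 0.0897 to 0.145 CPM (the count over the TMM-scaled library size). Replicates of a group differed by more than counting noise. Among the embryonic cultures, number 2 stood apart: its mesothelial marker sum was 844 CPM with PBS and 700 CPM with LPS, against 164 to 182 CPM in the other embryonic libraries. Its fibroblast marker sum was 8805 and 8083 CPM, against 19067 to 24808 CPM. Among the adult cultures, number 2 stood apart: its endothelial marker sum was 1895 and 1818 CPM, against 23.5 to 410 CPM in the other adult libraries. Its fibroblast marker sum was 9715 and 9274 CPM, against 17723 to 18270 CPM. Not every fibroblast marker went with these sums. In adult culture 2, Pdgfra was higher (78.5 and 120.9 CPM, against 28.5 to 55.2 CPM), as was Fbln1 (2.12 and 3.38 CPM, against 0.989 to 1.60 CPM). In embryonic culture 2, Pdgfra was at 3.78 and 5.84 CPM, against 2.24 to 4.47 CPM. The endothelial marker Pecam1 was at 0.916, 431 and 79.1 CPM in adult PBS cultures 1, 2 and 3. Other cultures stood apart in other sums. Macrophage markers summed to 159 to 2077 CPM in embryonic and 9.63 to 110 CPM in adult libraries. Embryonic culture 3 held 2077 and 1670 CPM of them with PBS and LPS, against 159 to 799 CPM in the other embryonic libraries. Adult culture 1 held 101 and 110 CPM, against 9.63 to 30.6 CPM in the other adult libraries. Its mesothelial marker sum was 1491 and 1512 CPM, against 479 to 751 CPM. All 10 macrophage markers were tested and had a positive log2 difference between embryonic and adult PBS libraries, with none past the threshold. Because the libraries are bulk RNA, fewer contractile cells and less contractile RNA per cell cannot be told apart. Calls that rest on culture 2 of either stage are given with and without it, and the part of the other cell types in these calls was not tested.

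The contractile genes were among the most abundant transcripts of these cells. They held between 3.39% and 7.22% of the gene counts of a library, and Acta2 was the top member in each of the 12 libraries. On a scale per transcript length (TPM), Acta2, Tagln and Actg2 ranked 1, 2 and 3 by their mean over the 12 libraries. They were at 20597, 10369.6 and 9019 TPM. Ranks are among genes matched to an exon length, which were 20953 directly and 1928 through a synonym, of 23329 listed. Only reads that mapped to a single place were counted, and the levels of genes with close copies were not corrected for this. Myl9 ranked 8 at 6345 TPM and Myh11 ranked 115 at 1083 TPM. Acta2, Actg2 and Myh11, taken as markers of smooth muscle and myofibroblasts together, were thus all present at high levels. These levels do not tell smooth muscle cells from the labelled myofibroblasts. The lowest tested members were Myocd at 4.52 TPM and Cacna1c, the pore of the L-type calcium channel, at 2.78 TPM. Pln, the regulator of the sarcoplasmic calcium pump, was seen as 1 count in embryonic PBS replicate 3, and any level up to the limit of 3 counts was not detectable in the other 11 libraries. Of the 75-base stretches of the Acta2 and Actg2 transcripts, 0 were shared with another gene's transcript. For Tagln 40.9% and for Vcl 38.9% were shared with the neighbouring Pcsk7 and Ap3m1 annotations. This search took both strands of the other transcripts, while the counts used were those of the sense strand only. Whether any reads of Tagln or Vcl could be assigned either way was therefore not tested.

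Among the thin filament genes, values are given in CPM for cultures 1, 2 and 3 in that order. Acta2 was at 14899.7, 13186 and 9555 CPM in embryonic PBS, 14347, 6936 and 10685 in embryonic LPS, 14561, 8407 and 14276 in adult PBS and 14846, 8077 and 14641 in adult LPS. It was low in adult culture 2 and in the LPS library of embryonic culture 2, and the stages overlapped. Tagln was at 5889, 5913 and 4633 CPM in embryonic PBS, 5521, 3241 and 4900.2 in embryonic LPS, 6578, 4398 and 6850.3 in adult PBS and 7053, 4058 and 6694 in adult LPS. This actin cross-linker, transgelin, was in the same way lowest in embryonic LPS culture 2. Actg2 was at 7276, 2177 and 4566 CPM in embryonic PBS, 6761, 1319 and 4863 in embryonic LPS, 3269, 2703 and 3215 in adult PBS and 3009, 2499.7 and 3010.2 in adult LPS. The enteric gamma actin was high in embryonic cultures 1 and 3, above every adult library, and lowest in embryonic culture 2. Per transcript length, Acta2 exceeded Actg2 by 1.45 to 1.56 times in embryonic cultures 1 and 3, by 4.29 and 3.73 times in the PBS and LPS libraries of embryonic culture 2, and by 2.21 to 3.50 times in adult libraries. Cnn1 was at 1013, 468 and 727 CPM in embryonic PBS, 899, 214 and 739.9 in embryonic LPS, 1025, 613 and 977 in adult PBS and 921, 548 and 853 in adult LPS. Calponin 1, which binds actin and slows myosin, was lowest in embryonic LPS culture 2. Tpm2 was at 1841, 1363 and 1660.1 CPM in embryonic PBS, 1572, 827 and 1659 in embryonic LPS, 2222, 1562 and 2424 in adult PBS and 2495, 1423 and 2288 in adult LPS. Beta tropomyosin, which lies along the actin filament, was lowest in the same library. The skeletal actin Acta1 was far below Acta2, which exceeded it per length by 41.2 to 84.5 times. The cardiac actin Actc1 had no library above 1.69 CPM, and the myogenic factor Myod1 was at 0 counts in all 12 libraries.

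**Figure D1:**
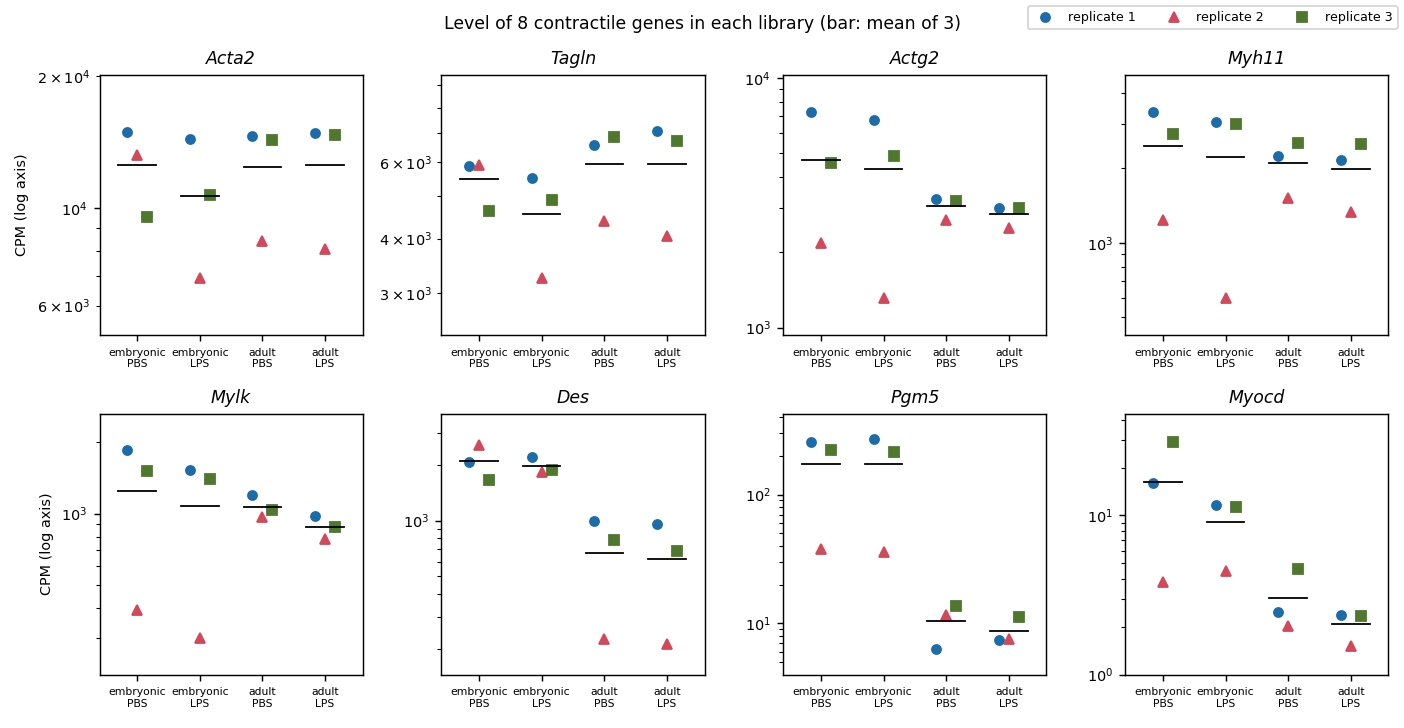
Level of 8 contractile genes in each library, in CPM on log axes, for the 4 groups, with a marker for each replicate number and a bar at the mean of 3. Replicate 2 (red triangles) lies lowest within both embryonic groups for Actg2, Myh11, Mylk, Pgm5 and Myocd. Within both adult groups it lies lowest for every gene shown except Pgm5.

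Of the motor and its regulators, Myh11 was at 3365, 1241 and 2744 CPM in embryonic PBS, 3073, 601 and 3009 in embryonic LPS, 2237, 1522 and 2525 in adult PBS and 2151, 1331 and 2494 in adult LPS. The myosin heavy chain of embryonic culture 2 was below every other library, and the remaining embryonic libraries lay above every adult library. Myl9 ranged from 799.6 to 2478 CPM and Mylk from 300.0 to 1842 CPM over the 12 libraries, with both lowest in embryonic LPS culture 2. Ppp1r14a was at 48.0, 9.21 and 55.4 CPM in embryonic PBS, 57.1, 8.67 and 63.2 in embryonic LPS, 32.2, 37.6 and 41.8 in adult PBS and 42.0, 33.1 and 34.5 in adult LPS. This inhibitor of myosin phosphatase was lower in both libraries of embryonic culture 2 than in any other library. Ppp1r12b was at 65.7, 27.3 and 56.7 CPM in embryonic PBS, 109.8, 56.6 and 91.5 in embryonic LPS, 36.4, 30.9 and 36.3 in adult PBS and 48.1, 40.6 and 52.7 in adult LPS. The myosin phosphatase subunit was higher in the LPS than in the PBS library of every culture.

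The intermediate filament genes had opposite patterns. Des was at 2079, 2579.5 and 1667 CPM in embryonic PBS, 2202, 1829.9 and 1881 in embryonic LPS, 989.9, 229 and 787 in adult PBS and 963, 215 and 687 in adult LPS. Every embryonic library lay above every adult library, and adult culture 2 was lowest. Synm was at 17.4, 6.89 and 25.3 CPM in embryonic PBS, 15.7, 13.1 and 21.2 in embryonic LPS, 7.77, 120.4 and 24.3 in adult PBS and 6.54, 88.2 and 17.8 in adult LPS. Synemin, which joins desmin filaments, was highest in both libraries of adult culture 2. Among the cross-linkers and attachment proteins, Pgm5 was at 256, 37.9 and 219.7 CPM in embryonic PBS, 269, 35.9 and 214 in embryonic LPS, 6.30, 11.6 and 13.6 in adult PBS and 7.39, 7.63 and 11.2 in adult LPS. This protein of membrane plaques, was higher in every embryonic than in every adult library. Pdlim3 was at 43.9, 3.23 and 29.2 CPM in embryonic PBS, 38.0, 2.87 and 24.5 in embryonic LPS, 6.85, 13.2 and 7.47 in adult PBS and 4.98, 8.06 and 6.01 in adult LPS. The alpha-actinin partner Pdlim3 was high in embryonic cultures 1 and 3 and below every adult library in embryonic culture 2. Synpo2 was at 343, 146 and 278 CPM in embryonic PBS, 466, 152 and 368 in embryonic LPS, 101, 143 and 127 in adult PBS and 152, 163 and 179 in adult LPS. Synaptopodin 2, an actin bundler of dense bodies, was higher with LPS than with PBS in every culture. Ldb3 was at 34.7, 27.0 and 20.5 CPM in embryonic PBS, 27.6, 17.6 and 15.1 in embryonic LPS, 40.5, 34.6 and 51.7 in adult PBS and 31.0, 23.5 and 35.6 in adult LPS. Ldb3 was lower with LPS in every culture. Smtn was at 214, 114 and 151 CPM in embryonic PBS, 181, 77.5 and 138 in embryonic LPS, 301, 176 and 291 in adult PBS and 244, 169 and 245 in adult LPS. Smoothelin, a marker of contractile smooth muscle, was lowest in embryonic culture 2. Actn1 was at 2679, 2554 and 2082 CPM in embryonic PBS, 2705, 2321 and 2522 in embryonic LPS, 2647, 2062 and 2518 in adult PBS and 2839, 2167 and 2659 in adult LPS. Alpha-actinin 1 varied least of all members, with a highest CPM 1.38 times its lowest.

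The remaining groups held genes of calcium and excitability, small heat shock proteins and transcription factors. Kcnmb1 was at 122, 34.6 and 95.7 CPM in embryonic PBS, 125, 28.5 and 108 in embryonic LPS, 15.5, 42.2 and 18.5 in adult PBS and 15.7, 40.7 and 18.7 in adult LPS. The subunit of the calcium-activated potassium channel was high in embryonic cultures 1 and 3, and the embryonic culture 2 libraries lay between the adult ones. Hspb7 was at 79.5, 49.5 and 128 CPM in embryonic PBS, 86.2, 47.4 and 119 in embryonic LPS, 176, 87.8 and 230.2 in adult PBS and 177, 81.1 and 190.0 in adult LPS. This small heat shock protein was lowest in embryonic culture 2. Myocd was at 15.9, 3.81 and 28.9 CPM in embryonic PBS, 11.7, 4.49 and 11.2 in embryonic LPS, 2.45, 2.02 and 4.60 in adult PBS and 2.38, 1.51 and 2.33 in adult LPS. Myocardin was low in number but higher in embryonic cultures 1 and 3 than in any adult library. Srf was at 123, 116 and 84.6 CPM in embryonic PBS, 101, 93.3 and 80.8 in embryonic LPS, 152, 86.2 and 138 in adult PBS and 133, 73.0 and 125 in adult LPS. Srf varied less than its coactivator, between 73.0 and 152 CPM. The heat map of all tested members shows these patterns side by side.

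The members not yet given are described by their range over the 12 libraries. Of the thin filament, Tpm1 (alpha tropomyosin) ran from 4114 to 9809 CPM, Cald1 (caldesmon, which restrains myosin) from 3061 to 4427 CPM and Cnn2 (calponin 2) from 624 to 1208 CPM. Of the cross-linkers, Flna (filamin A) ran from 2333 to 5039 CPM, Csrp1 from 947 to 2524 CPM, Fhl1 from 910.3 to 1507 CPM and Vcl (vinculin, which ties actin to adhesions) from 830.4 to 2608 CPM. The highest CPM of each of these 7 genes was at most 3.14 times its lowest, while for Pdlim3, Synm, Myocd and Pgm5 it was 15.3, 18.4, 19.2 and 42.8 times. The range of Pdlim7 was 221 to 402 CPM, that of Filip1l 177 to 651 CPM, that of Nexn 81.6 to 223 CPM, that of Hspb6 13.6 to 31.5 CPM and that of Cacna1c 4.77 to 26.9 CPM.

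**Figure D2:**
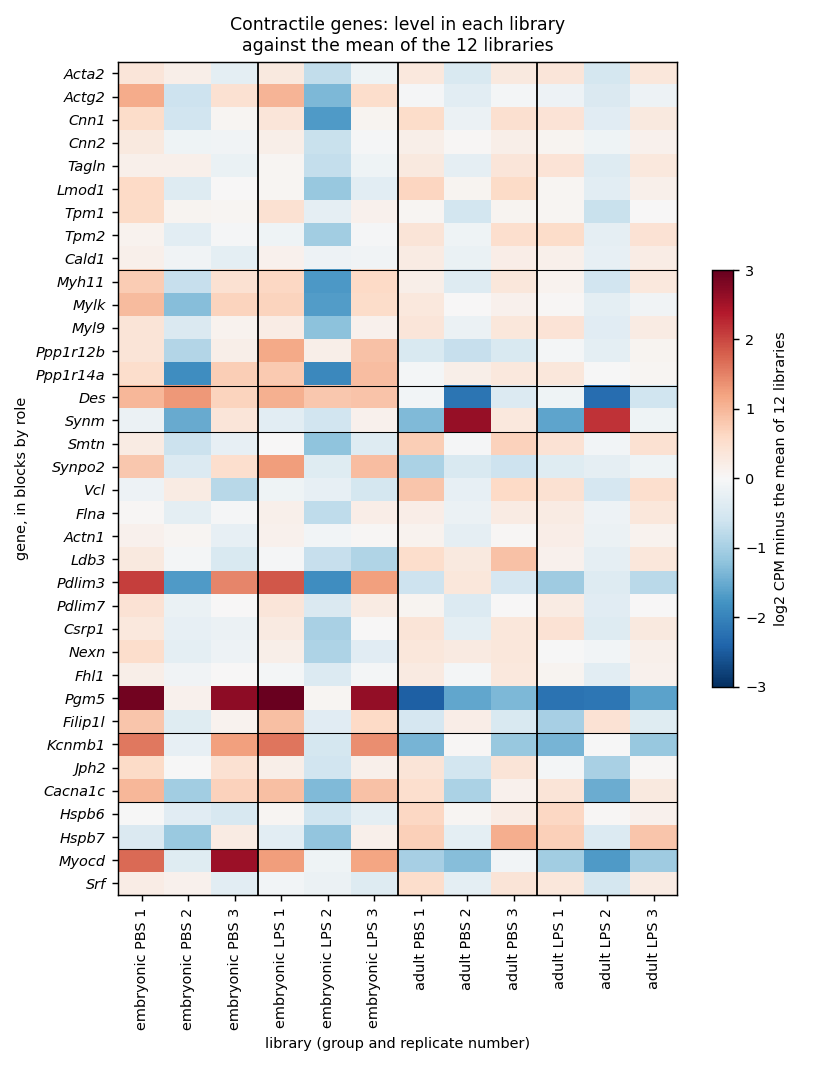
Level of the 36 tested members in each of the 12 libraries, as log2 CPM minus the mean of the 12 libraries (red higher, blue lower, colours end at 3 in either direction), with genes in blocks by role. Embryonic cultures 1 and 3 and embryonic culture 2 differ in colour for Pdlim3, Pgm5, Kcnmb1, Ppp1r14a and Mylk, and Synm is darkest in adult culture 2.

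The culture a library came from held the largest part of the spread for most contractile genes. For each gene, the sum of squares of log2 CPM over the 12 libraries was split into parts for stage, for culture within stage, for LPS within stage and a remainder. Culture has more levels than stage or LPS, and the parts were not scaled for this. The ranking of the parts therefore favours culture in any gene, and members are read against all tested genes. Culture was the largest part for 29 of 36 members and stage for 7, while LPS was the largest for 0. Over all tested genes, culture was the largest part for 60.1%, stage for 24.8% and LPS for 11.4%. The median member had 68.9% of its spread between cultures, 13.9% between stages and 3.30% with LPS, against 48.2%, 16.3% and 8.16% for the median of all genes. Mylk was at the upper end with 96.4% between cultures, and Pgm5 at the lower end with 19.5% and 80.0% between stages. Ppp1r12b had the largest LPS part, 32.8%. The median SD of log2 CPM between the 3 libraries of a group was 0.448 in embryonic PBS and 0.553 in embryonic LPS for members, and 0.287 and 0.292 for all genes. It was 0.355 in adult PBS and 0.352 in adult LPS for members, and 0.186 and 0.200 for all genes. These are descriptions, since members of 1 pathway are not independent.

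**Figure D3:**
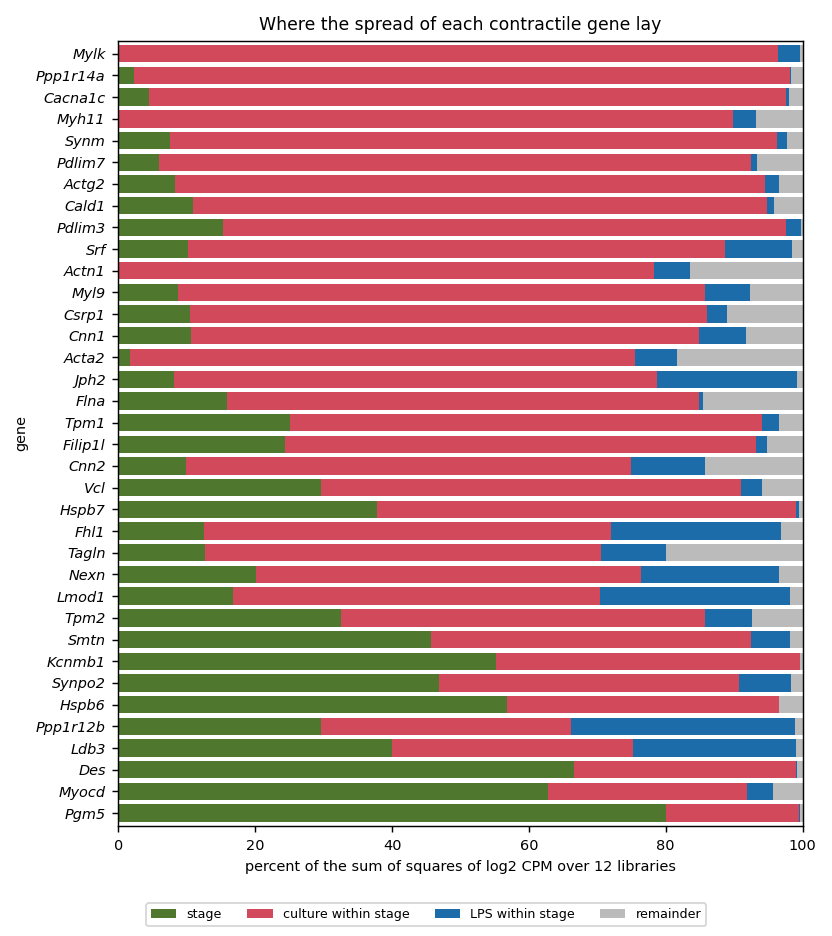
Percent of the sum of squares of log2 CPM over the 12 libraries that lay between stages, between cultures within a stage, with LPS within a stage and in the remainder, for the 36 tested members ordered by the culture part. The culture part runs from 19.5% for Pgm5 to 96.4% for Mylk.

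Embryonic culture 2 stood farthest from the other cultures of its stage. Over its PBS and LPS libraries, 33 of 36 members were lower than the mean of the other embryonic cultures, 14 of them by more than 1 on the log2 scale, while 7.92% of all tested genes were lower by that much. The 14 were Pdlim3 (-3.41), Pgm5 (-2.69), Ppp1r14a (-2.63), Mylk (-2.18), Cacna1c (-2.04), Myocd (-1.90), Kcnmb1 (-1.83), Myh11 (-1.82), Actg2 (-1.76), Cnn1 (-1.40), Synpo2 (-1.26), Hspb7 (-1.06), Myl9 (-1.04) and Synm (-1.04). A further group of 12 lay within 0.5 of the other cultures, among them Acta2 (-0.35), Tagln (-0.25), Des (0.16), Cald1 (-0.11), Vcl (0.41) and Srf (0.11). The genes of the motor, the calcium and potassium channels and the coactivator were thus low in this culture. Averaged over its PBS and LPS libraries, Acta2, Tagln, desmin and Srf stood near the other embryonic cultures. For Acta2 and Tagln the PBS and LPS libraries of this culture differed. Against the mean of its group, Acta2 was at 0.10 with PBS and -0.56 with LPS, and Tagln at 0.12 and -0.45. In the LPS library both were lower than in any other library of either stage. In adult culture 2, 30 of 36 members were lower than in the other adult cultures. Des (-1.93), Cacna1c (-1.55) and Hspb7 (-1.19) were lower by more than 1, while 4.71% of all tested genes were. Synm (3.07) and Kcnmb1 (1.28) were higher by more than 1, while 5.12% of all tested genes were. For neither culture 2 was the share of all genes that were lower by any amount counted. No test was made between cultures, since each is a single culture of its stage.

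The stage comparison asked how embryonic differed from adult stroma under the same treatment. In PBS libraries, 1 of 36 members passed the threshold, while 4.08% of all tested genes did (edgeR quasi-likelihood test, Benjamini-Hochberg adjusted p under 0.05), 1.51% as higher. This was Pgm5, which was higher in embryonic stroma where its log2 fold change was 4.03 (SE 0.834, adjusted p = 0.0294). In LPS libraries it was again Pgm5, at 4.31 (SE 0.846, adjusted p = 0.0226) in the same edgeR test, with 5.31% of all genes called, 3.04% as higher. SE denotes the standard error. The comparison in PBS libraries had 7 members with an unadjusted p under 0.05, and that in LPS libraries 7. The share of all genes with an unadjusted p under 0.05 was not counted, here or in the comparisons below. Of the others, Myocd had a log2 difference of 2.41 (SE 0.662, adjusted p = 0.0704) with PBS and 2.14 (SE 0.661, adjusted p = 0.0897) with LPS. Kcnmb1 had one of 1.73 (SE 0.660, adjusted p = 0.177) with PBS and Des one of 1.66 (SE 0.567, adjusted p = 0.131). At the other end, Synm had a log2 difference of -1.62 (SE 1.05, adjusted p = 0.453), Hspb7 of -0.94 (SE 0.490, adjusted p = 0.328) and Smtn of -0.68 (SE 0.339, adjusted p = 0.305) with PBS. The value of Synm rested on adult culture 2, and without that culture it was 0.04 (SE 0.659, adjusted p = 0.990). Acta2, the most abundant member, had one of 0.02 (SE 0.345, adjusted p = 0.989), Tagln of -0.12 (SE 0.276, adjusted p = 0.884), Myh11 of 0.23 (SE 0.556, adjusted p = 0.888) and Srf of -0.22 (SE 0.263, adjusted p = 0.732). The median over the 36 members was -0.04 with PBS and -0.12 with LPS, and over all tested genes 0.02 in both.

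Libraries of the stages did not overlap for 4 of 36 members with PBS, while 24.3% of all tested genes had no overlap. Des, Synpo2 and Pgm5 were higher and Hspb6 lower in every embryonic PBS library. With LPS, 4 members had no overlap (25.1% of all genes), and Des, Myocd, Pgm5 and Ppp1r12b were the higher ones. DESeq2 called Des, Myocd and Pgm5 with PBS (11.9% of all genes) and Kcnmb1 as well with LPS (13.1%).

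The call of Pgm5 with PBS was lost when any adult PBS library or embryonic PBS replicate 1 or 3 was left out (0 members called each time), and without embryonic PBS replicate 2 there were 2, Myocd and Pgm5. With LPS it was lost without any adult LPS library or embryonic LPS replicate 3. Without embryonic LPS replicate 2 the calls were Pgm5 and Synpo2, and without embryonic PBS replicate 2 they were Myocd and Pgm5. The share of all genes called is not given for these fits with a single library left out, so their counts describe the members only. The stage result depended further on culture 2 of either stage. Without both libraries of embryonic culture 2, an analysis added after the data were seen, 8 members were called with PBS and 9 with LPS, all higher in embryonic stroma, while 9.75% and 10.4% of all genes were called. With PBS these were Pgm5 at 4.50 (SE 0.331, adjusted p = 0.000397), Myocd at 2.87 (SE 0.401, adjusted p = 0.00552) and Kcnmb1 at 2.10 (SE 0.499, adjusted p = 0.0367) on the log2 scale in the edgeR test. The same edgeR fit called Pdlim3 at 1.99 (SE 0.353, adjusted p = 0.0137), Synpo2 at 1.32 (SE 0.175, adjusted p = 0.00456) and Actg2 at 0.94 (SE 0.231, adjusted p = 0.0399). It also called Ppp1r12b at 0.82 (SE 0.145, adjusted p = 0.0137) and Mylk at 0.65 (SE 0.150, adjusted p = 0.0329). With LPS the 9 were these 8 and Ppp1r14a at 0.72 (SE 0.148, adjusted p = 0.0228). These are genes that were low in embryonic culture 2, and leaving that culture out was chosen with this known, so the calls describe cultures 1 and 3 only. Acta2 was at -0.03 (SE 0.363, adjusted p = 0.974) in this edgeR fit and Myh11 at 0.54 (SE 0.289, adjusted p = 0.290). Without adult culture 2 in its place, Des was the 1 member called with either treatment (2.45% and 2.22% of all genes), at 1.24 (SE 0.248, adjusted p = 0.0449) with PBS in the edgeR test. Pgm5 was then at 4.10 (SE 1.11, adjusted p = 0.115). Macrophage marker sums were higher in embryonic libraries (159 to 2077 CPM against 9.63 to 110 CPM), and their part in these differences was not tested.

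**Figure D4:**
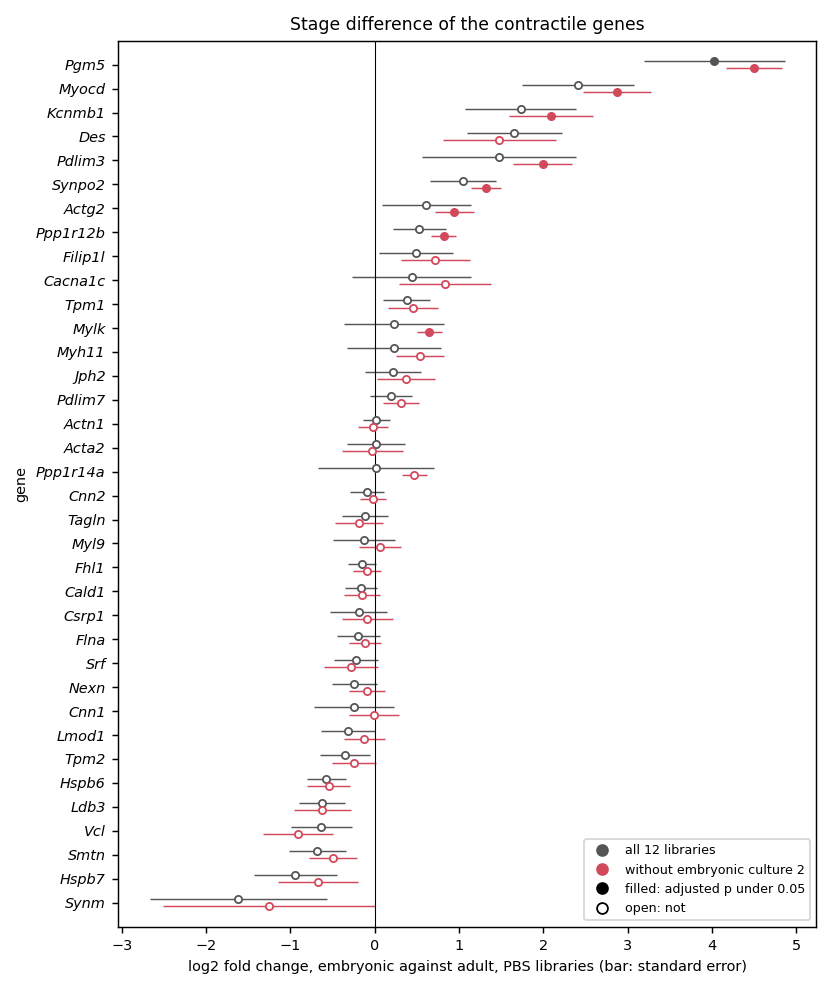
Log2 fold change of the 36 tested members between embryonic and adult PBS libraries with its standard error, for all 12 libraries (grey) and without embryonic culture 2 (red), with filled points for an adjusted p under 0.05 in the edgeR test. With all libraries only Pgm5 is filled, at 4.03, and without embryonic culture 2 the filled points are 8.

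The LPS comparison asked whether contractile genes changed after 6 h. In the model of the 4 groups, 0 of 36 members passed the threshold in embryonic stroma, where 2.75% of all genes were called, and 0 in adult stroma, where 0.606% were (edgeR quasi-likelihood test). An unadjusted p under 0.05 was given for 1 member in embryonic stroma, Ppp1r12b, and for 0 in adult stroma, and DESeq2 called 0 in both (5.25% and 2.25% of all genes). When the replicate number was fitted as a block within each stage, which compares LPS with PBS inside a culture, the biological coefficient of variation fell from 0.340 to 0.126. Then 5 members were called in embryonic stroma (12.5% of all genes, 9.43% higher and 3.11% lower) and 5 in adult stroma (6.20%, 4.69% higher and 1.51% lower). The LPS results that follow are from the edgeR test with this block.

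Ppp1r12b, which encodes a targeting subunit of myosin phosphatase, rose in both stages, by 0.82 (SE 0.0864, adjusted p = 0.000648) in embryonic and 0.44 (SE 0.0873, adjusted p = 0.0253) in adult stroma on the log2 scale with the block in edgeR. Its difference between LPS and PBS libraries was positive in 6 of 6 cultures, between 0.39 and 1.05. Lmod1, leiomodin 1, which nucleates actin filaments in smooth muscle, fell in both stages, with log2 changes of -0.54 (SE 0.0874, adjusted p = 0.00599) and -0.46 (SE 0.0872, adjusted p = 0.0208) in the same edgeR fit. Lmod1 was at 445, 226 and 299 CPM in embryonic PBS, 306, 135 and 235 in embryonic LPS, 460.1, 311 and 438 in adult PBS and 306, 237 and 330.1 in adult LPS. Each LPS value was below the PBS value of its culture, although the groups overlapped. Ldb3 fell with changes of -0.46 (SE 0.0862, adjusted p = 0.0117) in embryonic and -0.49 (SE 0.0849, adjusted p = 0.0142) in adult stroma in edgeR. Jph2, junctophilin 2, which holds the calcium store near the cell membrane, fell with changes of -0.41 (SE 0.0682, adjusted p = 0.00670) and -0.41 (SE 0.0683, adjusted p = 0.0127) in the same fit. Jph2 was at 351, 235 and 325 CPM in embryonic PBS, 269, 160.3 and 262 in embryonic LPS, 311, 162 and 308 in adult PBS and 228, 120.4 and 242 in adult LPS. The fall again appeared inside each of the 6 cultures. Nexn, nexilin, an actin-binding protein, fell in embryonic stroma, at -0.39 (SE 0.0900, adjusted p = 0.0293), and had -0.29 (SE 0.0896, adjusted p = 0.131) in adult stroma in edgeR. Pdlim3 fell in adult stroma, at -0.50 (SE 0.109, adjusted p = 0.0353), and had -0.22 (SE 0.105, adjusted p = 0.233) in embryonic stroma. With the block, Synpo2 had 0.30 (SE 0.103, adjusted p = 0.101) in embryonic and 0.42 (SE 0.104, adjusted p = 0.0580) in adult stroma in edgeR. Mylk had -0.26 (SE 0.0730, adjusted p = 0.0568) and -0.28 (SE 0.0729, adjusted p = 0.0734).

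The calls in adult stroma rested on all 3 cultures: leaving out any 1 of them left 0 of the members called (2.04%, 3.45% and 1.77% of all genes). In embryonic stroma, leaving out culture 1, 2 or 3 gave 4, 5 and 8 called members (10.5%, 15.0% and 7.98% of all genes), and Lmod1, Ldb3, Jph2 and Ppp1r12b were called each time. With library totals in place of TMM, 15 members were called in embryonic and 7 in adult stroma with the block (14.1% and 6.23% of all genes), and the median of all genes moved to -0.13 and -0.05. Ppp1r12b was then not called in adult stroma, at 0.40 (SE 0.113, adjusted p = 0.0771) in edgeR. Counts were also simulated with these spreads. Among 13037 genes in embryonic stroma, the blocked test found 25% of 100 changes of 0.5 on the log2 scale. It found 83% of 100 changes of 1, and the test without a block found 0% and 16%. In adult stroma, among 13036 genes, the blocked test found 26% and 79%. The blocked test also called 12 other genes in each stage, while the test without a block called 0 others. The part of such other calls among the called members was not tested.

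The main filament genes did not pass the test with LPS. Acta2 had a log2 change of -0.27 (SE 0.185, adjusted p = 0.408) in embryonic and 0.00 (SE 0.183, adjusted p = 0.998) in adult stroma with the block in edgeR. Tagln had -0.29 (SE 0.166, adjusted p = 0.314) and -0.02 (SE 0.165, adjusted p = 0.982), Myh11 had -0.34 (SE 0.195, adjusted p = 0.311) and -0.09 (SE 0.192, adjusted p = 0.887), and Cnn1 had -0.42 (SE 0.192, adjusted p = 0.206) and -0.17 (SE 0.189, adjusted p = 0.739) in the same edgeR fit. In embryonic stroma the LPS and PBS libraries of these genes differed most in culture 2. There the LPS library was below the PBS library for 31 of 36 members, with a median of -0.38 and -0.93 for Acta2. The share of all genes that were lower in that library was not counted. The macrophage marker sum of this culture was higher with LPS, at 799 CPM against 319 CPM. In embryonic culture 1 the median over the members was -0.10 and the macrophage sum was lower with LPS, at 159 CPM against 199 CPM. In culture 3 the median was 0.07, and that sum was again lower with LPS, at 1670.2 CPM against 2077 CPM. In adult cultures 1, 2 and 3 it was -0.05, -0.15 and -0.09. The part of macrophage RNA in these values was not tested.

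Direction was shared more widely than the calls. With LPS, 9 of 36 members were lower in all 6 cultures (Smtn, Lmod1, Mylk, Ldb3, Pdlim3, Nexn, Fhl1, Srf and Jph2), while 9.35% of all tested genes were. The 2 members that were higher in all 6 were Synpo2 and Ppp1r12b, while 13.0% of all genes were. None of the members was lower in every culture of 1 stage and higher in every culture of the other (0 of 36, against 2.68% of all genes). Of these 9, Srf had a change of -0.22 (SE 0.0701, adjusted p = 0.0810) in embryonic and -0.19 (SE 0.0700, adjusted p = 0.198) in adult stroma with the block in edgeR. Myocd had -0.57 (SE 0.287, adjusted p = 0.252) and -0.49 (SE 0.335, adjusted p = 0.534), and it was higher with LPS in embryonic culture 2 alone. Of the 7 members whose promoter held a CArG box, 3 (Ldb3, Srf and Fhl1) were among these 9 and the other 4 (Myl9, Cnn2, Vcl and Filip1l) were not. Filip1l had positive differences in all 3 embryonic cultures, with a change of 0.19 (SE 0.144, adjusted p = 0.461) in the same edgeR fit.

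**Figure D5:**
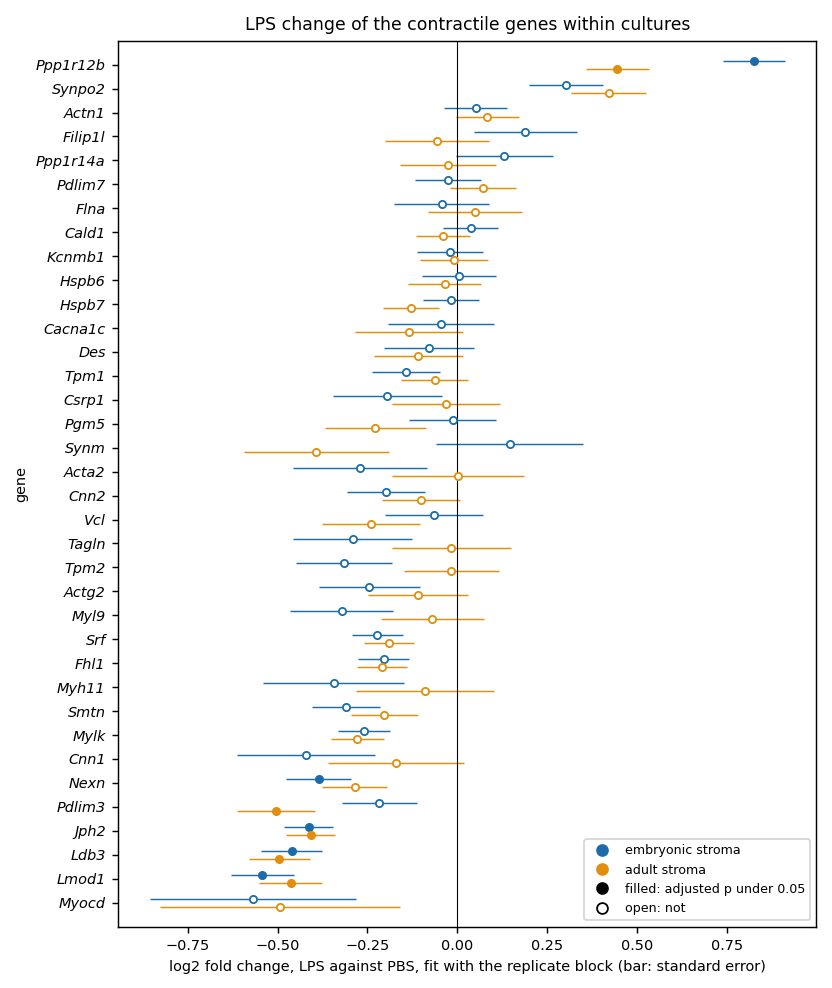
Log2 fold change of the 36 tested members between LPS and PBS libraries in the edgeR fit with the replicate block, with its standard error, in embryonic (blue) and adult (orange) stroma, with filled points for an adjusted p under 0.05. Lmod1, Ldb3 and Jph2 are filled on the left and Ppp1r12b on the right in both stages, Nexn in embryonic stroma and Pdlim3 in adult stroma.

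A difference of the LPS change between the stages was tested as an interaction. Without the block, 0 of 36 members passed in edgeR (0% of all genes, with 0 members at an unadjusted p under 0.05), and DESeq2 called 0 (0.192% of all genes). With the block, 0 passed as well, against 0.844% of all genes, with 1 member at an unadjusted p under 0.05. This was Ppp1r12b, whose change was larger in embryonic stroma by 0.38 (SE 0.122, adjusted p = 0.378) on the log2 scale. Synm had 0.54 (SE 0.288, adjusted p = 0.672) and Pdlim3 0.29 (SE 0.151, adjusted p = 0.666) in the same edgeR fit.

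Other genes of the pathway were taken from lists written for this comparison. Of the RhoA, ROCK and myosin phosphatase genes, which set the calcium sensitivity of contraction, 0 of 18 were called between stages in edgeR with either treatment. With the block and LPS, Rhoc rose in embryonic stroma (0.44, adjusted p = 0.0232) and the LIM kinase Limk2 fell in adult stroma (-0.52, adjusted p = 0.00744). Of 20 nonmuscle counterparts such as Myh9, Myh10 and Actb, 0 were called in any comparison, with or without the block. Of 13 regulators of Srf target genes that were tested, 1 was called between stages. The homeobox factor Prrx1 was at 1.33, 0.305 and 0.508 CPM in embryonic and 52.8, 28.7 and 48.5 CPM in adult PBS cultures 1, 2 and 3, a log2 difference of -5.92 (edgeR adjusted p = 0.00207). With the block, 0 of the 13 were called after LPS in either stage.

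Of 18 tested channels and receptors of smooth muscle, 1 was higher and 1 lower in embryonic PBS libraries. Chrm2, the muscarinic receptor for acetylcholine, was at 77.4, 14.3 and 36.4 CPM in embryonic and 0, 1.45 and 0.0682 CPM in adult PBS cultures (edgeR adjusted p = 0.0283). Adult cultures 1 and 3 were thus under the level of 3 counts, and embryonic culture 2 was the lowest embryonic one. Its relative Chrm3 had a log2 difference of 2.12 and did not pass (edgeR adjusted p = 0.107). Oxtr, the oxytocin receptor, was at 0.0301, 0 and 0.150 CPM in embryonic and 2.31, 0.819 and 1.19 CPM in adult PBS cultures (edgeR adjusted p = 0.0178), with every embryonic library near or under the level of 3 counts. With LPS and the block, the calcium channel Cacna1d fell in embryonic stroma (-1.55, adjusted p = 0.0340) and the guanylate cyclase subunit Gucy1b3 in adult stroma (-0.38, adjusted p = 0.0397).

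Marker lists of other cell types were compared in the same way. Of 9 tested fibroblast markers, 1 was called between stages, Pdgfra, at 2.38, 3.78 and 4.31 CPM in embryonic and 28.5, 78.5 and 30.8 CPM in adult PBS cultures (edgeR adjusted p = 0.00686). Of 7 tested endothelial markers 2 were lower in embryonic PBS libraries, Cdh5 and Esam, and 1 of 2 tested epithelial markers was higher, Krt20. Of the striated muscle (4 tested), pericyte (5), interstitial cell of Cajal (2), enteric glia and neuron (5), macrophage (10) and mesothelial (8) markers, 0 were called between stages with PBS in edgeR. Striated muscle markers summed to 99.7 to 262 CPM and epithelial markers to 10.7 to 61.4 CPM over the 12 libraries. In LPS libraries Pdgfra, Cdh5 and Krt20 were called in the same direction, Kdr was called as higher in embryonic stroma and Esam was not called.

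Some of these markers changed with LPS in the edgeR fit with the block that gave the contractile calls, and their log2 changes are given in parentheses. In embryonic stroma 3 of 10 macrophage markers rose, Ptprc (1.84, adjusted p = 0.00283), Emr1 (1.08, adjusted p = 0.0313) and Fcer1g (1.07, adjusted p = 0.0233), while 5 of the 10 had negative values. Of the enteric glia and neuron markers Tubb3 (0.42, adjusted p = 0.0188) and Hand2 (0.26, adjusted p = 0.0470) rose, as did the endothelial Kdr (1.17, adjusted p = 0.0220) and the interstitial cell of Cajal marker Ano1 (0.68, adjusted p = 0.00991). Of 8 mesothelial markers, all with negative values, 1 fell, Krt18 (-0.68, adjusted p = 0.0418). In adult stroma Pdgfra (0.77, adjusted p = 0.00805) and Gja1 (0.50, adjusted p = 0.0238) of the fibroblast and interstitial cell of Cajal lists rose, and Pdgfrb (-0.48, adjusted p = 0.0161) and Lrrn4 (-0.48, adjusted p = 0.0122) of the pericyte and mesothelial lists fell. The part of these cell types in the LPS changes of the contractile genes was not tested. The striated muscle and epithelial lists had 0 calls with LPS in either stage.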

How the data were processed

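Groups and replicate numbers are those of the sample titles. The names of the deposited files match the titles in stage and treatment, but several end in another number, and they begin with a prefix that libraries of 1 replicate number share in all 4 groups and that is not explained. Per the labels and the study's methods, poly(A)-selected stranded libraries were sequenced as single-end 75-base reads, and the authors trimmed them, aligned them with STAR to the GRCm38.p6 build, retained reads that mapped to a single place with no more than 1 mismatch, and deposited raw counts per gene symbol, without normalization. Counts on the sense strand were used, and the opposite strand held 1.14% to 1.98% of the gene counts. Intervals of 3 counts cover counting error only. Counts were analysed with edgeR 4.0.16 in R 4.3.3 (TMM, genes with a CPM above 0.5 in all libraries of at least 1 group, quasi-likelihood test on 1 model of the 4 groups, Benjamini-Hochberg adjustment over 13038 genes). A standard error (SE) is the log2 fold change over the square root of F. The labels number the replicates, and LPS and PBS libraries of 1 number in a stage deviated together (r of 0.610 to 0.850), so a fit with this number as a block is given beside the LPS results. TPM used exon lengths from GENCODE M21, and log2 CPM a prior count of 2. DESeq2 1.42.0, other size factors, filters and left-out libraries were alternatives. The analysis was tested on simulated data. The 13 other gene lists were written from general knowledge of these genes. Of the 199 symbols of the members and these lists together, 6 were matched through a synonym and 1 (Mrtfa) was not matched to a single row. Members and lists were chosen with earlier results of these data known. Named genes are the markers, main filament proteins and transcription factors, the 3 members with the largest positive and negative values of each contrast, and up to 4 genes of each other list; Jph2, Nexn, Mylk and the cell type markers named with values were chosen after these were seen. Figures were drawn with matplotlib 3.10.9 in Python 3.11.15.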

Additional observations from a re-analysis of the deposited data

How the results depend on the processing

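Counts of called members are given out of 36 tested. The share of all genes called is given above for part of the settings only. For the rest, among them the block across stages, RLE size factors and fits with a single library left out, the counts describe the members only. The stage difference had 1 with PBS and 1 with LPS. DESeq2 gave 3 and 4, an adjusted p under 0.01 gave 0 and 0, and libraries of the treatment alone gave 0 and 0. Counts summed over LPS and PBS gave 0 for the stage difference. Leaving out each library in turn gave 0 to 2 with PBS and 0 to 2 with LPS. Without embryonic culture 2 there were 8 and 9, and without adult culture 2 there was 1 each. A replicate block across stages gave 5 and 7. Embryonic and adult libraries of 1 number share that number and a prefix of the file names. Their deviations from the group means correlated with r of -0.306 to -0.00220. Whether they also share a batch was not tested. For the LPS change, the count without a block was 0 in both stages, also in every fit with a left-out library, and with the replicate block within stage it was 5 and 5. The block with each embryonic culture left out gave 4, 5 and 8, and with each adult culture left out 0. The block with RLE size factors gave 5 and 5, and with library totals 15 and 7. The cause of these differences was not tested, except that left-out cultures leave fewer libraries. The interaction had 0 calls with and without the block. Over all alternatives, 97 counts lay within 1.5 times the count given and 32 did not. The counts given for the model without a block were 0 or 1. A match can therefore be of 0 with 0, which is a weak check where a test finds few changes. None of the called values changed its sign under any alternative run, while uncalled members did so in 26 of 900 values for the stage difference with PBS and in 114 of 1044 for the LPS change in embryonic stroma. The fits with a block and another scaling or a left-out culture, and those without a culture, were chosen after seeing the data. Depth limits Pln, Oxtr and Chrm2, which had libraries at or under 3 counts.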
